A study of Mus musculus with 6 samples.

Results

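The glutathione and Nrf2 antioxidant genes are the genes with which a cell makes and recycles glutathione and thioredoxin and removes superoxide, peroxides and reactive electrophiles. Members were taken from the gene names of the array by name. They comprise every glutathione transferase of the alpha, mu, pi, theta, omega, zeta and kappa classes (19 names), every glutathione peroxidase (7 names), every peroxiredoxin (8 names) and 18 further genes of the Nrf2 system, thioredoxin and glutathione metabolism, superoxide dismutation and peroxide breakdown. This gave 52 of the 27573 genes on the array, measured by 78 probes. Of these, 48 were tested, each well above background on every array of 1 group or both, and 47 were so on all 6 arrays. Gstt1, tested through PBS, was above background on 3 PBS arrays and 1 Anakinra array.

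Primary keratinocytes, the epithelial cells that build the epidermis, came from newborn wild-type mice. All 6 cultures carried the v-ras-Ha oncogene, brought in by adenovirus infection at 10 viral particles per cell, so the comparison holds no culture without the oncogene. Anakinra, a drug form of the natural antagonist of the interleukin-1 receptor, was added to 3 cultures 5 hours later at 5 ug/ml, and the 3 control cultures were given PBS. RNA was prepared after 3 more days, with the antagonist renewed after 2 days. The comparison asks which antioxidant genes differ when the interleukin-1 receptor of ras-expressing keratinocytes is blocked. The isolation gave hair follicle buds as well as epidermal cells. Nothing in the labels tells separate animals or isolations apart, and the p-values therefore cover the spread of these cultures alone, which may be technical.

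Nrf2, the product of Nfe2l2, is a transcription factor that the adaptor Keap1 marks for degradation. Oxidants and electrophiles modify Keap1, Nrf2 then accumulates, and with a small Maf partner it binds antioxidant response elements near genes for glutathione synthesis, thioredoxin reduction and detoxification. In epidermis these enzymes protect cells that face air, light and chemicals, and oncogenic ras is known to act on the same system in several cell types.

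The core of the antioxidant response element is TGACNNNGC, or GCNNNGTCA on the other strand. It was searched on both strands in the 300 bases from 250 before to 50 after each RefSeq gene start of build GRCm38.p6. It stood in 12.4% of 32851 windows of all genes. Of the members, 43 had 56 windows, and 10 of these windows (17.9%) held it, in G6pdx, Gclm, Gsta3, Gstm5, Nfe2l2, Prdx1, Sod1, Srxn1, 1 of 2 windows of Gstm7 and 1 of 3 windows of Txnrd1. The 7 below are shown because the same core letters stand beside members whose Anakinra values were lower, higher or overlapping. Each is written along the gene's strand, 5′ to 3′, with the match in capitals. The match is a description of these letters and shows neither binding nor its absence.
Gclm: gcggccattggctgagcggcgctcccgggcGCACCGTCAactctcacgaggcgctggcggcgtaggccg
Txnrd1: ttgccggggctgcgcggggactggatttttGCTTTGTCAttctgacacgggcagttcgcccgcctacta
Nfe2l2: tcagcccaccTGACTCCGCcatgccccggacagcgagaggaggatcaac
Sod1: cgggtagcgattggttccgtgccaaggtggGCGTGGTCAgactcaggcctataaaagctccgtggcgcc
Srxn1: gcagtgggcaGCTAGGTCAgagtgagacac
Prdx1: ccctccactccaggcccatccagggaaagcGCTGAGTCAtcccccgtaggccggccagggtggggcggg
G6pdx: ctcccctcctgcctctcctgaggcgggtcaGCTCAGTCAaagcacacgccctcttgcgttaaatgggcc

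The Gclm stretch lies at chr3:122245393-122245461 on the plus strand, with the match from -134 to -126 relative to the gene start. That of Txnrd1 lies at chr10:82859084-82859152 (plus strand, match from -92 to -84), and that of Nfe2l2 at chr2:75704865-75704913 (minus strand, match from -240 to -232). Sod1 has it at chr16:90220676-90220744 (plus strand, match from -56 to -48) and Prdx1 at chr4:116685436-116685504 (plus strand, match from -133 to -125). G6pdx has it at chrX:74428899-74428967 (minus strand, match from -57 to -49). In Srxn1 it lies past the start, from 29 to 37, at chr2:152105542-152105571 on the plus strand. Beside these letters the log2 changes were -0.44 in Gclm, -0.31 in Txnrd1, -0.24 in Nfe2l2 and -0.21 in Sod1. They were 0.26 in Srxn1, 0.09 in Prdx1 and 0.02 in G6pdx, each negative with arrays scaled on medians.

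On the scanner's scale the arrays' 75th percentile was 864 to 1006 in PBS and 1002 to 1087 in Anakinra, and 0 spots were saturated. Spots well above background made up 62.5% to 71.0% of PBS arrays and 56.1%, 86.5% and 55.6% of Anakinra 1, 2 and 3. Slide 1 held PBS 2, PBS 3 and Anakinra 1, and slide 2 the others. A within-slide change below therefore sets 1 array of a group against 2 of the other, and reuses arrays of the main fit. All 9 keratinocyte markers were above background on every array, with a summed linear signal (in multiples of the 75th percentile) of 1087 to 1231 in PBS and 1044 to 1150 in Anakinra. Of these 9, Krt1 and Krt10, which are also on the suprabasal list, rose. The 8 suprabasal markers, which accompany differentiation, had 7 genes that rose at a limma adjusted p under 0.05, and their sum was 110 to 137 in PBS and 195 to 247 in Anakinra. Of the 7 fibroblast markers 2 rose, with sums of 7.26 to 8.81 and 8.97 to 10.3. The sums of 7 melanocyte markers were 90.7 to 109 and 105 to 113, of 6 immune markers 1.77 to 2.22 and 1.91 to 2.27, and of 4 endothelial markers 2.00 to 2.13 and 1.82 to 1.94, with 0 genes passing in each. The 4 erythroid markers on the array, whose cells are rich in Prdx2 and Cat, summed to at most 0.240 and were not above background on all arrays. No marker of these lists was below background on every array. The part of these cells and of differentiation in the member values was not tested, and in such bulk RNA fewer cells of a type and less RNA per cell cannot be told apart.

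The measured differences between Anakinra and PBS in the antioxidant genes were all under 2-fold. In 15 members all 3 Anakinra cultures had lower values than every PBS culture (31.9%, against 13.8% of all genes). The largest of these differences were in glutathione reductase (Gsr, 1.40-fold), Gclm (1.36-fold), Gstt2 (1.27-fold) and thioredoxin reductase (Txnrd1, 1.24-fold). In 7 members (14.9%, against 12.5% of all genes) all 3 had higher values, most so in Gpx2 (1.63-fold) and Gstm6 (1.60-fold). No member passed the threshold of a limma adjusted p under 0.05. Of all 16493 genes tested, 292 did (1.77%), 160 higher in Anakinra (0.970%) and 132 lower (0.800%), and with 1 array left out the count of all genes was 8 (without PBS 2) to 234 (without Anakinra 2). The smallest adjusted p among members was 0.0648, in Gsr. A log2 change is Anakinra minus PBS, on a scale where each array's log2 signal is given relative to the 75th percentile of that array. The median change was -0.06 over the 48 members and 0.01 over all genes tested, with 21 members positive and 27 negative.

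At an unadjusted limma p under 0.05 there were 18 members (37.5%), against 16.1% of all genes tested. Of these, 6 were higher in Anakinra (12.5%, against 8.48% of all genes) and 12 lower (25.0%, against 7.61%). The groups did not overlap in 22 of 47 members with a value on every array (46.8%), against 26.3% of all such genes, with 7 members higher (all genes 12.5%) and 15 lower (all genes 13.8%). Of the 33 members with a mean signal above the 75th percentile, 13 had an unadjusted p under 0.05. Among the 7639 such genes in all, 18.4% did (7.27% higher, 11.2% lower), and the groups did not overlap in 33.9% (11.5% higher, 22.4% lower). These shares describe the list, and unadjusted p-values across so many genes are no calls. The count of 18 members was 8 without PBS 1 (17% of members, against 9.64% of all genes in that fit) and 7 without PBS 2 (14%, against 8.4%). Scaling on array medians moved the median of all genes to -0.32, and then 0 members and 519 of all genes (3.15%) had an unadjusted p under 0.05. Of the 21 positive members, Gpx2, Gstm6 and Gstm2 alone stayed positive under that scaling. That scaling shifts every gene's change by the same amount. Relative to the median of all genes, 41 of the 48 members, among them all 24 described in full, kept their sign with both quantile scaling and normexp background correction.

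**Figure D1:**
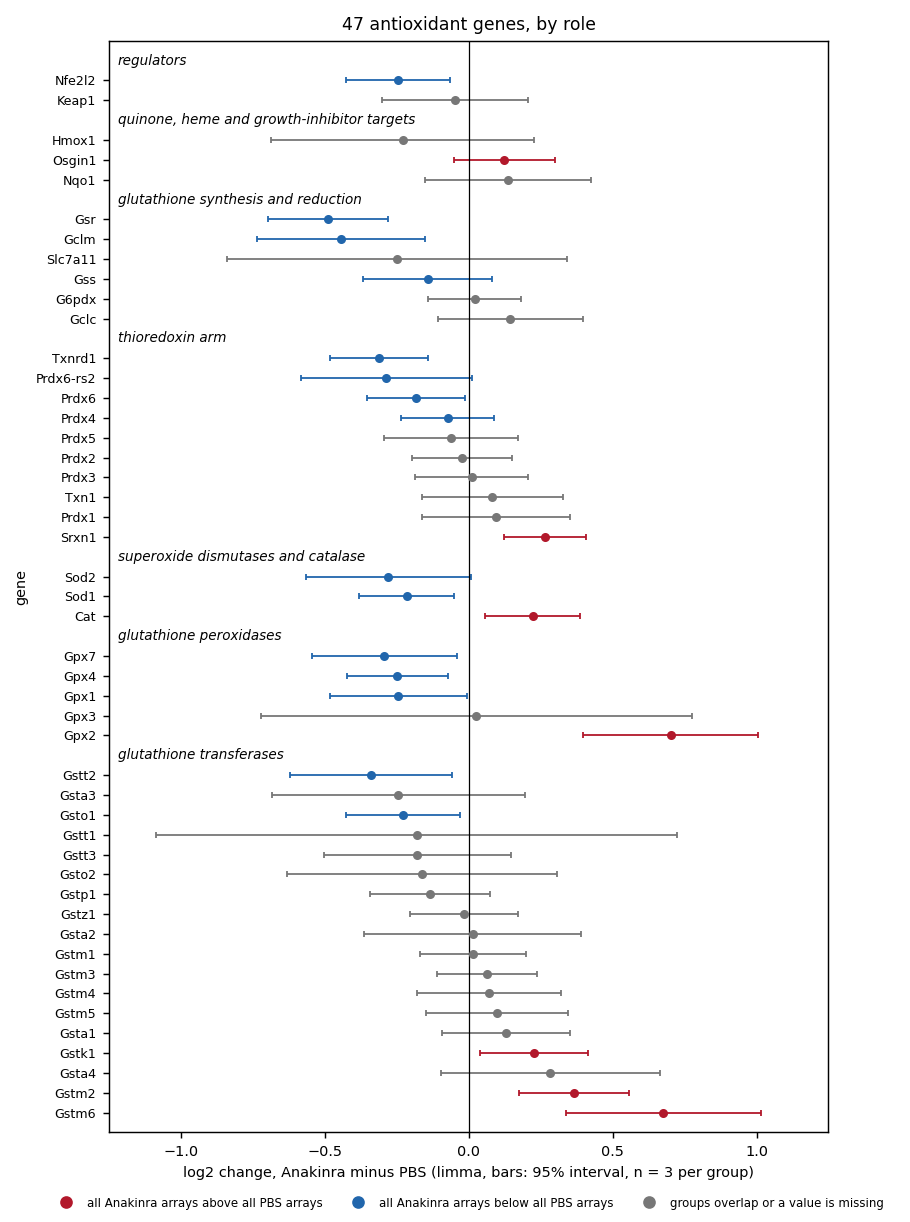
Log2 change, Anakinra minus PBS, of 47 of the 48 tested antioxidant genes, grouped by role. Points are limma estimates and bars 95% intervals (n = 3 per group); red marks genes whose 3 Anakinra arrays all lay above PBS (7), blue those below (15), and no gene passed the adjusted threshold.

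Of the 2 regulators, Nfe2l2 had lower values in Anakinra and Keap1 did not separate. The brightest Nfe2l2 probe (chr2:75476553-75476612, minus strand; all probe positions here come from the array design, build mm8) had log2 signals of 4.22, 4.17 and 4.09 in PBS 1, 2 and 3. In Anakinra 1, 2 and 3 they were 3.84, 3.92 and 3.98, all below every PBS array. The log2 change was -0.24 ± 0.07 (SE, n = 3 per group; 95% interval -0.43 to -0.06; limma adjusted p = 0.198), and within slides 1 and 2 it was -0.29 and -0.27. Its other probes went different ways. A second probe for the same reference transcript (chr2:75476699-75476758) differed by -0.06 with overlapping groups. A dim probe for a cDNA (chr2:75501533-75501592) differed by 0.80, with log2 signals of -4.82, -4.59 and -4.54 in PBS and -4.06, -3.33 and -4.15 in Anakinra, and with the mean of all 4 probes the gene was at 0.11. Keap1, which holds Nrf2 for degradation, had signals of 2.16, 1.93 and 2.01 in PBS and 1.99, 2.11 and 1.86 in Anakinra. Its groups overlapped, and its change of -0.05 ± 0.10 (95% interval -0.30 to 0.20; limma adjusted p = 0.879) turned to 0.01 with normexp background correction.

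The classical targets Nqo1, Hmox1 and Osgin1 lay on both sides of zero. Nqo1, a quinone reductase, had log2 signals of -1.06, -0.83 and -0.89 in PBS and -0.71, -0.98 and -0.68 in Anakinra. Its change was 0.14 ± 0.11 (95% interval -0.15 to 0.42; limma adjusted p = 0.627), and -0.19 with arrays scaled on medians. Hmox1, the inducible heme oxygenase that breaks heme down to biliverdin, had 4.72, 4.68 and 4.51 in PBS and 4.72, 4.44 and 4.06 in Anakinra. Anakinra 1 was thus level with the highest PBS array, and Anakinra 2 and 3 were below every PBS array. The change was -0.23 ± 0.18 (95% interval -0.69 to 0.23; limma adjusted p = 0.604), and within slides 1 and 2 it was 0.12 and -0.47. Osgin1, an oxidative stress-induced growth inhibitor, had 0.17, 0.06 and -0.00307 in PBS and 0.21, 0.20 and 0.18 in Anakinra. The groups did not overlap, and its 3 probes differed by 0.12 to 0.25, yet the change of 0.12 ± 0.07 (limma adjusted p = 0.459) was small beside its interval of -0.05 to 0.30 and was -0.21 with arrays scaled on medians.

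Among the 6 genes of glutathione synthesis and reduction, 0 had an unadjusted p under 0.05 with higher values and 2, Gsr and Gclm, with lower ones. Over all genes tested, 8.48% were higher and 7.61% lower at that threshold. The median change of the 6 genes was -0.20. Gsr encodes glutathione reductase, which returns oxidised glutathione to its reduced form with NADPH. Its brightest probe (chr8:35163276-35163335, plus strand) had log2 signals of 2.65, 2.50 and 2.42 in PBS and 2.00, 2.07 and 2.03 in Anakinra. The Anakinra arrays lay close together and below every PBS array, 1.40-fold lower in the mean. The log2 change was -0.49 ± 0.08 (95% interval -0.70 to -0.28; limma adjusted p = 0.0648), with -0.46 and -0.60 within slides 1 and 2. The groups did not overlap for either of the other Gsr probes, which differed by -0.33 and -0.40. When probes had to be above background on all 6 arrays, Gsr passed (limma adjusted p = 0.0329). That filter left fewer genes to test, and limma estimated the spread anew from them.

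Gclm and Gclc encode the modifier and the catalytic subunit of glutamate-cysteine ligase, the rate-limiting enzyme of glutathione synthesis. For Gclm, whose promoter stretch is printed above, the log2 signals were 0.13, 0.20 and 0.18 in PBS, against -0.12, -0.20 and -0.50 in Anakinra. All Anakinra arrays were lower, Anakinra 3 most so, and the change was -0.44 ± 0.12 (95% interval -0.74 to -0.15; limma adjusted p = 0.159). Within slides 1 and 2 it was -0.31 and -0.48. Gclc had 1.97, 1.81 and 1.95 in PBS and 2.20, 2.05 and 1.91 in Anakinra. Those groups overlapped, and the change was 0.14 ± 0.10 (95% interval -0.11 to 0.40; limma adjusted p = 0.555), or -0.19 with arrays scaled on medians. Whether the 2 subunits differ in their change was not tested.

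Slc7a11 is the cystine importer that feeds the pathway. Its brightest probe had log2 signals of -0.16, 0.10 and -0.10 in PBS and -0.51, -0.60 and 0.20 in Anakinra. Anakinra 1 and 2 were below PBS and Anakinra 3 above it, with a change of -0.25 ± 0.23 (95% interval -0.84 to 0.34; limma adjusted p = 0.671). All 4 of its probes differed by a negative amount, from -0.51 to -0.04, and for 2 of them the groups did not overlap. Gss, glutathione synthetase, was at -0.14 ± 0.09 with all Anakinra arrays below PBS, and G6pdx, which supplies NADPH through the pentose phosphate pathway, was at 0.02 ± 0.06 with overlapping groups.

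**Figure D2:**
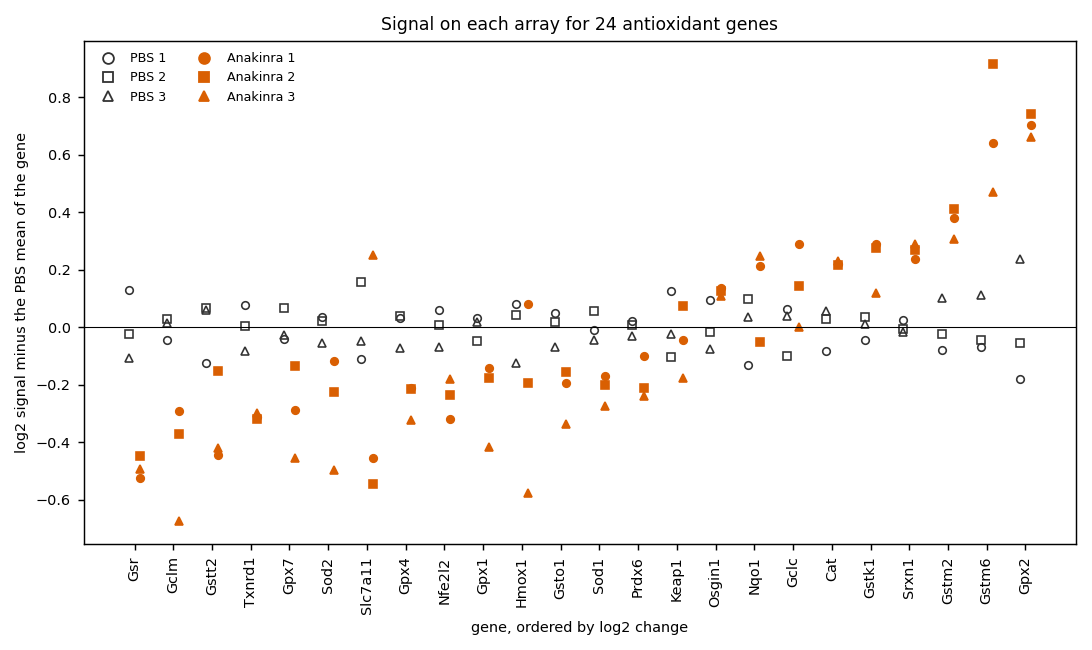
Log2 signal on each of the 6 arrays for the 24 genes described in full, each relative to its own PBS mean, ordered by log2 change. Open black symbols are PBS and filled orange ones Anakinra, with 1 shape per replicate number; Gsr lies lowest (-0.49 in the mean) and Gpx2 highest (0.70), and Hmox1 and Slc7a11 show the widest spread among Anakinra arrays.

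The thioredoxin arm had 11 tested genes, among which Srxn1 was higher and Txnrd1 and Prdx6 were lower at an unadjusted p under 0.05. Txnrd1 encodes the cytosolic thioredoxin reductase, which passes electrons from NADPH to thioredoxin. Its log2 signals (probe at chr10:82327284-82327343, plus strand) were 3.53, 3.46 and 3.37 in PBS, against 3.14, 3.13 and 3.15 in Anakinra. The Anakinra arrays were nearly equal and all below PBS, with a change of -0.31 ± 0.07 (95% interval -0.48 to -0.14; limma adjusted p = 0.111) and within-slide values of -0.27 and -0.39. Srxn1 encodes sulfiredoxin, which reactivates overoxidised peroxiredoxins. Its signals (probe at chr2:151802624-151802683, plus strand) were 2.47, 2.44 and 2.43 in PBS, against 2.68, 2.71 and 2.74 in Anakinra. This small difference was set against an even smaller spread, with a change of 0.26 ± 0.06 (95% interval 0.12 to 0.41; limma adjusted p = 0.108), 0.25 within each slide, and -0.066 with arrays scaled on medians. Its other 2 probes differed by 0.12 and 0.31 with overlapping groups.

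The peroxiredoxins, which reduce peroxides at a reactive cysteine, lay near zero apart from Prdx6 and Prdx6-rs2. Prdx6, the 1-cysteine peroxiredoxin, had log2 signals of 4.14, 4.13 and 4.09 in PBS and 4.02, 3.91 and 3.88 in Anakinra. Its change was -0.18 ± 0.07 (95% interval -0.35 to -0.01; limma adjusted p = 0.277), and within slides 1 and 2 it was -0.09 and -0.25. A second bright Prdx6 probe differed by -0.33 without overlap, and a pair of dim probes by 0.16 and 0.19 with overlap. Prdx6-rs2, a related sequence, was at -0.29 ± 0.12. Because it resembles Prdx6, its probe may share that signal, so it is uncertain as a separate measurement. Prdx1, Prdx2, Prdx3, Prdx4 and Prdx5 had changes from -0.07 to 0.09, and thioredoxin itself, Txn1, was at 0.08 ± 0.10 with overlapping groups.

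Of the 3 tested genes for superoxide dismutases and catalase, both dismutases had lower values in Anakinra and catalase higher ones. Sod1, the cytosolic copper-zinc dismutase, had log2 signals of 4.54, 4.60 and 4.50 in PBS and 4.38, 4.35 and 4.27 in Anakinra (probe at chr16:90115111-90115170, plus strand). The groups did not overlap, with a change of -0.21 ± 0.07 (95% interval -0.38 to -0.05; limma adjusted p = 0.210). A dim Sod1 probe for another cDNA, above background on 3 PBS arrays and 1 Anakinra array, differed by 0.23, and with the mean of both probes the gene was at 0.00525. Sod2, the mitochondrial manganese dismutase and a known NF-kB target, had 4.17, 4.16 and 4.09 in PBS and 4.02, 3.92 and 3.65 in Anakinra. All Anakinra arrays were lower, though with a spread among them, and the change was -0.28 ± 0.11 (95% interval -0.57 to 0.01; limma adjusted p = 0.324). Within slides 1 and 2 it was -0.10 and -0.39.

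Cat encodes catalase, which breaks hydrogen peroxide down without a thiol donor. Its log2 signals were 1.15, 1.26 and 1.29 in PBS, against 1.46, 1.45 and 1.47 in Anakinra. The Anakinra arrays were nearly equal and all above PBS, with a change of 0.22 ± 0.07 (95% interval 0.06 to 0.39; limma adjusted p = 0.200), and -0.11 with arrays scaled on medians. Sod3, the extracellular dismutase, was well above background on 2 PBS arrays and 1 Anakinra array and was not tested.

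Among the 5 tested glutathione peroxidases, which use glutathione to reduce peroxides, Gpx2 was higher and Gpx4, Gpx7 and Gpx1 lower at an unadjusted p under 0.05. Gpx2, the epithelial form known from the gut, had log2 signals of -0.75, -0.63 and -0.34 in PBS and 0.13, 0.17 and 0.09 in Anakinra (probe at chr12:77711255-77711314, minus strand). The PBS arrays spread more than the Anakinra arrays, and no array of 1 group reached the other. At 1.63-fold, with a log2 change of 0.70 ± 0.12 (95% interval 0.40 to 1.01; limma adjusted p = 0.0690), it was the greatest difference among the members under this scaling. It was 0.61 and 0.88 within slides 1 and 2. Scaled on array medians it was 0.37, and with probes required above background on all 6 arrays it passed (limma adjusted p = 0.0313).

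Gpx4, which reduces lipid peroxides in membranes and guards against ferroptosis, had log2 signals of 5.98, 5.98 and 5.87 in PBS and 5.73, 5.73 and 5.62 in Anakinra. Its change was -0.25 ± 0.07 (95% interval -0.42 to -0.07; limma adjusted p = 0.182). Gpx1, the abundant cytosolic form, had 6.74, 6.66 and 6.73 in PBS and 6.57, 6.53 and 6.29 in Anakinra, with a change of -0.24 ± 0.09 (limma adjusted p = 0.299). Gpx7, a form of the secretory pathway, had -1.05, -0.95 and -1.04 in PBS and -1.30, -1.15 and -1.47 in Anakinra, with a change of -0.29 ± 0.10 (limma adjusted p = 0.251). In each of the 3 every Anakinra array was below every PBS array, though in Gpx1 and Gpx7 the gap was smaller than the range within Anakinra. Gpx3, the plasma form, was dim at 0.03 ± 0.30. Gpx5, above background on 2 PBS arrays and 1 Anakinra array, and Gpx6, on 0 and 1, were not tested.

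The 18 tested glutathione transferases, which couple glutathione to electrophiles, divided into 10 positive and 8 negative changes with a median of 0.01. At an unadjusted p under 0.05, 3 were higher and 2 lower, against 8.48% and 7.61% of all genes. Groups did not overlap in 3 higher and 2 lower transferases (all genes 12.5% and 13.8%), and in 12 they overlapped. Both leading values belonged to the mu class. Gstm6 had log2 signals of -2.88, -2.86 and -2.70 in PBS and -2.17, -1.90 and -2.34 in Anakinra (probe at chr3:108069107-108069251, minus strand), a change of 0.68 ± 0.13 (95% interval 0.34 to 1.01; limma adjusted p = 0.0927). It was 0.61 and 0.76 within the slides, and 0.47 with normexp background correction. It passed with probes above background on all 6 arrays (limma adjusted p = 0.0457) and with array weights (limma adjusted p = 0.0477). Gstm2 had 1.85, 1.90 and 2.03 in PBS and 2.30, 2.34 and 2.23 in Anakinra, a change of 0.37 ± 0.08 (95% interval 0.17 to 0.56; limma adjusted p = 0.0993), and 0.04 with arrays scaled on medians.

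The mu genes lie in 1 cluster on chromosome 3 and resemble each other, so probes may share signal between them. The other tested mu genes Gstm1, Gstm3, Gstm4 and Gstm5 had overlapping groups and changes from 0.01 to 0.10. Gstm7 was not above background on all arrays of either group (1 PBS and 2 Anakinra arrays for its brighter probe). Gstk1, the kappa form, had 2.50, 2.58 and 2.55 in PBS and 2.83, 2.82 and 2.66 in Anakinra, a change of 0.23 ± 0.07 (limma adjusted p = 0.235), and -0.10 with arrays scaled on medians.

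On the lower side, Gsto1, the omega form that also reduces dehydroascorbate, had log2 signals of 7.36, 7.33 and 7.24 in PBS and 7.12, 7.16 and 6.97 in Anakinra. Its change was -0.23 ± 0.08 (95% interval -0.43 to -0.03; limma adjusted p = 0.252). Gstt2, of the theta class, had -1.57, -1.38 and -1.38 in PBS and -1.89, -1.59 and -1.86 in Anakinra, a change of -0.34 ± 0.11 (limma adjusted p = 0.237), with -0.51 and -0.16 within slides 1 and 2. Its lowest PBS array and highest Anakinra array nearly met. Gsta4, which conjugates the lipid peroxidation product hydroxynonenal, was at 0.28 ± 0.15 with overlapping groups. Gstp1, the pi form that is prominent in skin, was at -0.13 ± 0.08 with overlapping groups, and its second probe differed by -0.06. The alpha genes Gsta1, Gsta2 and Gsta3, the omega gene Gsto2, the theta genes Gstt1 and Gstt3 and the zeta gene Gstz1 had changes from -0.24 to 0.13. A second, dimmer Gsta3 probe differed by -0.35, and its groups did not overlap. Gsta2 lacked PBS 2, whose spot carried an outlier flag, so its fit used the other 5 arrays.

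**Figure D3:**
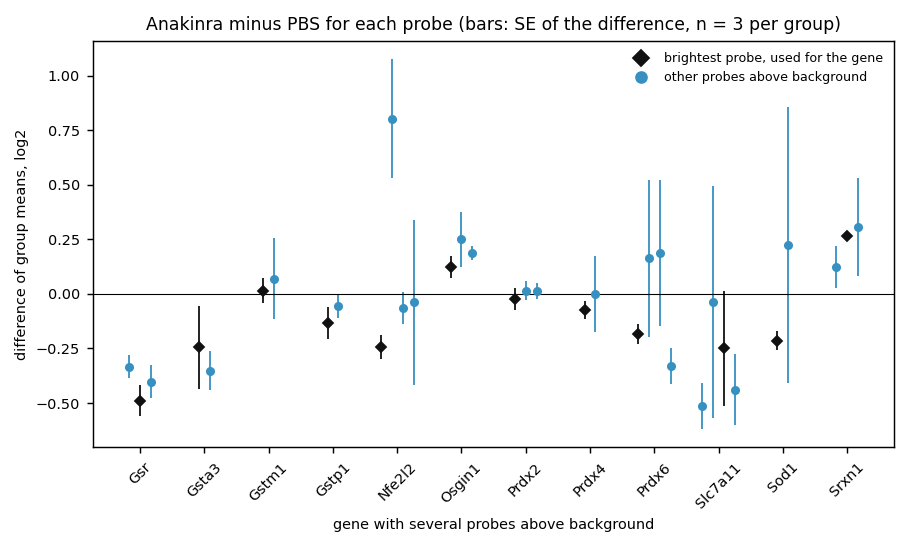
Difference of group means, Anakinra minus PBS in log2, for each probe above background on a whole group, in the 12 antioxidant genes with several such probes. Bars are the SE of the difference (n = 3 per group) and black diamonds the brightest probe; all 3 Gsr, 4 Slc7a11, 3 Osgin1 and 3 Srxn1 probes share a sign, while Nfe2l2, Prdx2, Prdx6 and Sod1 have probes on both sides of zero.

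Other genes of the same pathways were followed as a list of 107, of which 105 were on the array and 96 were tested. In this list 1 gene rose and 1 fell (2.08%, against 1.77% of all genes) and the rest did not pass. Ggct, gamma-glutamylcyclotransferase of glutathione breakdown, rose 2.01-fold. Its log2 signals were 2.63, 2.49 and 2.64 in PBS, against 3.62, 3.74 and 3.41 in Anakinra, a change of 1.01 ± 0.11 (95% interval 0.73 to 1.28; limma adjusted p = 0.0206). Cyba, the p22phox membrane subunit that several superoxide-making NADPH oxidases share, fell 1.88-fold. Its signals were 2.70, 2.68 and 2.63 in PBS, against 1.99, 1.70 and 1.59 in Anakinra, a change of -0.91 ± 0.12 (95% interval -1.20 to -0.61; limma adjusted p = 0.0337).

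In both genes the gap between the groups exceeded the range within either group. Neither passed with the slide as a block (limma adjusted p = 0.0927 for Ggct and 0.110 for Cyba). Without PBS 1, PBS 2 or PBS 3 Ggct was at 0.129, 0.176 and 0.113 in limma adjusted p, and without Anakinra 1 at 0.0776. Cyba was at 0.188, 0.246 and 0.158 without the PBS arrays in the same order, at 0.0717 without Anakinra 2 and at 0.0791 without Anakinra 3. Over all alternatives the limma adjusted p ran from 0.00514 to 0.868 for Ggct and from 0.0125 to 0.538 for Cyba, with the sign of each change kept.

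By sublist, 0 of 10 Nrf2 partners and repressors, 0 of 9 NADPH-supplying enzymes and 0 of 24 detoxification and iron genes passed. Of the 41 genes of glutathione and thiol handling Ggct passed, and of the 12 makers of reactive oxygen and nitrogen Cyba did. At an unadjusted p under 0.05 there were 14 higher and 16 lower genes (31.2%, against 16.1% of all genes). The next genes by p, named after their values were seen, did not pass. Slc3a2, the heavy chain that partners Slc7a11, had 5.10, 5.01 and 4.99 in PBS and 4.69, 4.68 and 4.61 in Anakinra, a change of -0.37 ± 0.06 (limma adjusted p = 0.0681). Noxo1, an organiser of the NADPH oxidase Nox1, was at -0.83 ± 0.15 (limma adjusted p = 0.0759), and Fth1, the ferritin heavy chain, at -0.45 ± 0.08 (limma adjusted p = 0.0799). Abcc5, an export pump, was at 0.44 ± 0.08 (limma adjusted p = 0.0733), Mgst1, a microsomal transferase, at -0.77 ± 0.15 (limma adjusted p = 0.0915), and Akr1b3, an aldose reductase, at -0.37 ± 0.07 (limma adjusted p = 0.0930).

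**Figure D4:**
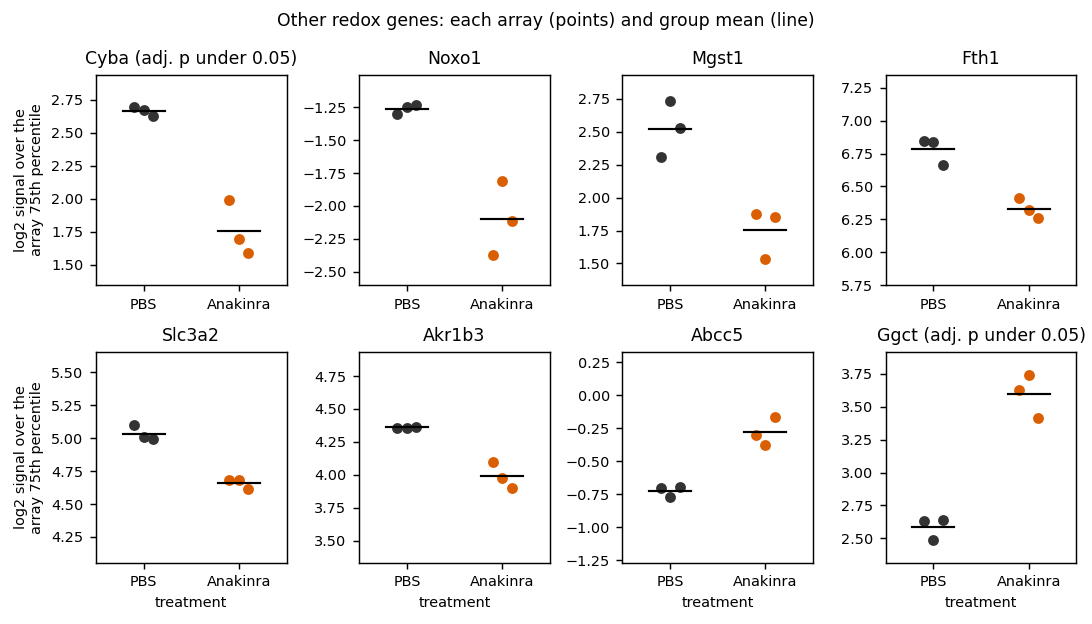
Log2 signal relative to the array's 75th percentile for 8 redox genes outside the member list, with the arrays of each group as points and the group mean as a line. Cyba and Ggct passed the adjusted threshold, and the other 6, those with the next smallest p, did not; every panel spans the same range of log2 units.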

How the data were processed

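Total RNA from 6 cultures was measured on 6 Agilent 1-colour arrays, grouped by the treatment label. Per the file headers, the authors' deposited scanner files hold intensities read with Agilent Feature Extraction 9.5.3.1, background-subtracted and detrended within the array and not normalised between arrays. The authors' deposited value table is log2. Each column equals the log2 of the same array's processed intensity plus a constant, with deviations of at most 0.000505, and column medians were 5.77, 5.83 and 6.22 for PBS and 5.74, 7.00 and 6.21 for Anakinra. The constants brought the linear means of the columns to between 3314.26 and 3314.31, and no gene was centred.

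From these files each spot's processed intensity was divided by the array's 75th percentile and taken to log2. Control and outlier-flagged spots were left out, spots of a probe averaged, and a probe was kept if every array of 1 group or both held it well above background, with at least 2 values per group. The brightest kept probe stood for the gene. The background threshold acts on probes, so a gene tested through 1 group had to be bright there. Other gene names were updated through RefSeq (GRCm38.p6), while members kept the file's names. Groups were compared with limma 3.58.1 in R 4.3.3 (lmFit, eBayes, two-sided, Benjamini-Hochberg over 16493 genes), a step tested on simulated data. With 3 arrays per group their number limits the precision.

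Members and lists were chosen with earlier results of these data known. The values of 1 member are not reported here. Described in full were members past the threshold, members with non-overlapping groups and an unadjusted p under 0.05, the regulators, the classical Nrf2 targets, the dismutases and catalase, and of the other redox genes those past the threshold. Alternatives were 5 other scalings or values, filters, probe means, slide and replicate blocks, array weights and leaving out each array. Same-numbered arrays deviated together with correlations of 0.41, -0.49 and -0.21, so the numbers were not taken to pair samples.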

Additional observations from a re-analysis of the deposited data

How the results depend on the processing

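The count of 0 members past the limma threshold held under all alternatives but 3. It was 3 with probes above background on all 6 arrays (Gpx2, Gsr and Gstm6, in a new fit on fewer genes) and 1 with array weights (Gstm6). Without Anakinra 3 it was 1 (Gstm7), so 0 to 1 with an array left out. Gstm7 was not tested in the main fit. Its brighter probe was near background, with log2 signals of -5.23, -5.28 and -6.23 in Anakinra 1, 2 and 3. Apart from the fit without a filter, in which 0 members passed, Gstm7 entered only with Anakinra 3 left out. Its pass there depends on the filter. The all-gene count, 292, was 57 with median scaling, 36 without a filter, 578 with the all-array filter and 53 with the slide block. It was 0 with the replicate block, whose numbers were not taken to pair samples. Under that block 10 members had an unadjusted p under 0.05 (20.8%, against 10.7% of all genes). With an array left out the all-gene count was 8 (without PBS 2) to 234 (without Anakinra 2). It was 21 without PBS 1, 64 without PBS 3, 84 without Anakinra 1 and 128 without Anakinra 3. Array weights called 415. Median scaling gave 8 higher and 49 lower genes, against 160 and 132. The 2 calls among other redox genes became 0 with median scaling, without a filter and with either block, 3 with quantile scaling, 5 with normexp and with array weights, 8 with the all-array filter, and 0 to 3 with an array left out. The median member change, -0.06, was -0.39 with median scaling. The number of members with an unadjusted p under 0.05, 18 (37.5%, against 16.1% of all genes), was 0 with median scaling (all genes 3.15%). Without a filter it was 10 (19.2%, against 12.6%), without PBS 1 it was 8 (17%, against 9.64%) and without PBS 2 it was 7 (14%, against 8.4%). Signs reversed with median scaling in Cat (-0.11), Gclc (-0.19), Gstk1 (-0.10), Nqo1 (-0.19), Osgin1 (-0.21) and Srxn1 (-0.066). They reversed with the mean of probes in Nfe2l2 (0.11) and Sod1 (0.00525), and within slide 1 in Hmox1 (0.12). Keap1 reversed with normexp (0.00978), the authors' table (0.00800), without PBS 1 (0.0137), without Anakinra 3 (0.0145) and within slide 1 (0.0183). The cause was not tested.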

Other observations

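The RefSeq table gave current names of these families to 3 genes that the array lists under older names, so they are not members. Gstp3, a pi class transferase, was at -0.72 ± 0.18 (n = 3 per group; limma adjusted p = 0.156), Gpx8, a peroxidase of the secretory pathway, at 0.28 ± 0.11 (limma adjusted p = 0.301), and Gstt4, of the theta class, at 0.50 ± 0.68 (limma adjusted p = 0.796). The Gstt4 fit lacked PBS 2, leaving 2 PBS values, and in Anakinra 1 array had it above background. None passed the threshold.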
